A study of Homo sapiens with 9 samples.

Results

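The 8 genes described here encode receptors, carriers, a transporter, an activating enzyme and targets of thyroid hormone. They were chosen by name, and with earlier results of these data known. They are the receptors THRA and THRB, the plasma carriers SERPINA7 and TTR, the transporter SLC16A10, the deiodinase DIO1, and the target genes KLF9 and THRSP. All 8 were found among the 57773 features of the files, and 7 of them had enough reads to be tested. RNA was sequenced from 9 cultures of HepG2, a human hepatocellular carcinoma line, kept below 25 passages in medium with foetal bovine serum. Cultures were exposed for 72 h to 0.1% DMSO alone (3 libraries), to 2.5 µM tris(2-butoxyethyl) phosphate (TBOEP; 3 libraries) or to 125 µM TBOEP (3 libraries). TBOEP is an ester of phosphoric acid added to plastics and floor polishes and used to slow burning. All TBOEP cultures also held 0.1% DMSO, and the labels describe both concentrations as not cytotoxic. Each culture was seeded, dosed and extracted separately. No added thyroid hormone is named in the labels, and all 9 cultures come from this single cell line.

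Thyroxine and triiodothyronine travel in blood bound to thyroxine-binding globulin (SERPINA7), transthyretin (TTR) and albumin, all made by the liver. They enter cells through membrane transporters, among them SLC16A10, which also carries aromatic amino acids. In hepatocytes the selenoenzyme DIO1 removes iodine from thyroxine to give the more active triiodothyronine and clears inactive forms. The nuclear receptors THRA and THRB, of which THRB is the main form in liver, bind DNA mostly as partners of RXR, repress with corepressors when empty, and activate with coactivators when bound by hormone.

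The promoters of 2 genes are shown: SERPINA7, which had the largest fold change of the group at 125 µM, and DIO1, whose human gene is known to be induced by the hormone. Each line holds the 250 bases before the transcription start of RefSeq, build GRCh38.p14, in the direction of the gene. Capitals mark TATAAA, the letters of a TATA box, and AGGTCA, the half-site that thyroid hormone and other nuclear receptors bind, on either strand (TGACCT is AGGTCA and TTTATA is TATAAA read on the other strand).

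SERPINA7 (chrX:106038728-106038977, minus strand): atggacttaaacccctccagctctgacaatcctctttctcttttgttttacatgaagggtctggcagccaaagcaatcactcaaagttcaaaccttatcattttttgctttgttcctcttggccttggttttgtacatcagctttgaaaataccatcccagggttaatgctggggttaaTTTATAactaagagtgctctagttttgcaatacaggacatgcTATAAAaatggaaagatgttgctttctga

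DIO1 (chr1:53893937-53894186, plus strand): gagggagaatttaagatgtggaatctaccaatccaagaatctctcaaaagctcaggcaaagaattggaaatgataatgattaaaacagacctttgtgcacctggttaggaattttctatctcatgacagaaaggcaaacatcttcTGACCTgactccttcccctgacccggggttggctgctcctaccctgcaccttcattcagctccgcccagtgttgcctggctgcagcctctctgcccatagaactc

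RefSeq promoters matched 7 of the 8 genes (all but TTR), with 2 for THRB. In the SERPINA7 window TATAAA occurred at 29 to 24 bases before the start and, on the other strand, at 71 to 66, and in a THRB window at 182 to 177 bases before it, while 10.7% of 35116 promoters of the same length held it. AGGTCA occurred in the DIO1 window only, of the 8 windows searched, at 105 to 100 bases before the start, and in 12.1% of all promoters. The spaced repeat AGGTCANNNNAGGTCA, the classical element of the receptor pair, was in none of the 8 windows and in 0.0142% of all. The windows differed in base content: 87.2% G and C in THRA, 47.6% in DIO1, 38.8% in SERPINA7 and 32.4% in KLF9, beside a median of 58.0% over all promoters. These are matches of letters and were not tested as binding sites.

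Reads assigned to genes numbered 2480964 to 11885877 per library, so that 3 reads correspond to 0.252 CPM in the deepest library and 1.21 CPM in the shallowest. The third libraries at 2.5 µM and 125 µM were the shallowest of the 9. Of 10 hepatocyte markers all were present and all were tested. Of 11 markers of the thyroid gland and pituitary, NKX2-1, FOXE1 and TSHB had no reads, and the whole list summed to 2.02 to 4.08 CPM in any library. Markers of other cell types were at or near 0 for the defining genes PTPRC, CD3E, KDR, COL1A2 and DCN, while the endothelial list of 4 genes in the files summed to 3.58 to 4.80 CPM at 125 µM and 1.42 to 3.78 CPM in controls, and the leukocyte list of 5 to 7.49 to 9.01 CPM at 125 µM and 1.24 to 6.09 CPM in controls. The fibroblast list of 5 summed to 9.76 to 13.9 CPM at 125 µM and 20.5 to 23.1 CPM in controls, nearly all of it from PDGFRB. TIE1 of the endothelial list and CD68 of the leukocyte list rose at 125 µM (adjusted p = 0.00223 and adjusted p = 0.0017), and VWF and PDGFRB fell (adjusted p = 0.0243 and adjusted p = 0.00118). VWF and TIE1 had only 77 and 76 reads in all 9 libraries, and the VWF groups overlapped. CD68 overlaps AC113189.5 and is uncertain to the extent that reads are shared. The part of these marker genes in the results was not tested. Reads in introns made up 4.91 to 5.50% of nuclear gene reads at 125 µM, 4.93 to 7.74% at 2.5 µM and 6.14 to 7.24% in controls, and their part in the results was likewise not tested.

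Levels can be compared between genes only per exon length, as in the deposited RPKM values. In the controls SERPINA7 had the highest level, 153.5 ± 12.9 RPKM (mean ± SD, n = 3), which placed it at rank 153 of 16485 features with reads. TTR followed at 63.0 ± 2.38 RPKM and KLF9 at 8.80 ± 1.37 RPKM. THRA, DIO1 and THRB had 4.66 ± 0.728, 4.15 ± 0.119 and 3.99 ± 0.289 RPKM. The control libraries of these neighbours overlapped, so that their order is within the spread. SLC16A10 was lowest of the tested genes at 0.733 ± 0.146 RPKM. At 125 µM the carriers SERPINA7 (74.3 to 81.7 RPKM) and TTR (68.8 to 82.4 RPKM) lay in the same range, whereas in controls every SERPINA7 library was above every TTR library. THRA had 2.86 to 3.43 RPKM at 125 µM, above the 2.25 to 2.55 RPKM of THRB there.

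**Figure D1:**
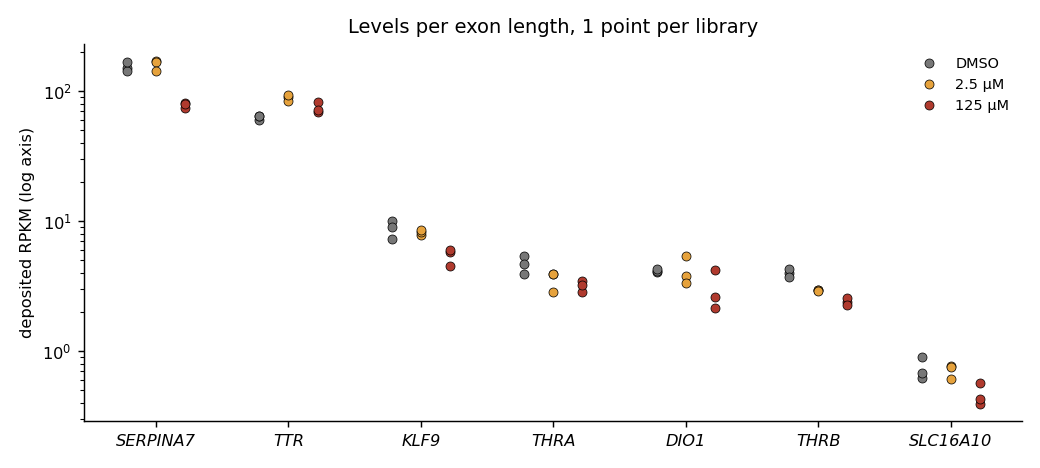
Deposited RPKM (log axis) of the 7 tested genes in controls, at 2.5 µM and at 125 µM TBOEP, 1 point per library. SERPINA7 stands above TTR in controls and in its range at 125 µM, and SLC16A10 lies lowest in every group.

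At 125 µM, 6 of the 8 genes fell relative to solvent, none rose, 1 (TTR) did not pass the test and 1 (THRSP) had too few reads. The 6 that fell were SERPINA7, THRB, KLF9, DIO1, THRA and SLC16A10, and their falls ranged from 1.51-fold to 2.04-fold. Expression was compared with edgeR's quasi-likelihood test on total gene reads of all 9 libraries, with Benjamini-Hochberg adjustment over 12901 genes and a threshold of 0.05. In that comparison 40.2% of all tested genes passed, made up of 19.9% of all tested genes lower and 20.3% higher. The median log2 fold change was -0.67 over the 7 tested members and 0.00356 over all tested genes. The members were chosen with earlier results known, so this comparison with all genes is a description only. Values below are CPM (reads scaled to library size with TMM, edgeR's scaling factor), fold changes are on the log2 scale with their SE, and in such bulk RNA fewer cells of a type and less RNA per cell cannot be told apart.

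**Figure D2:**
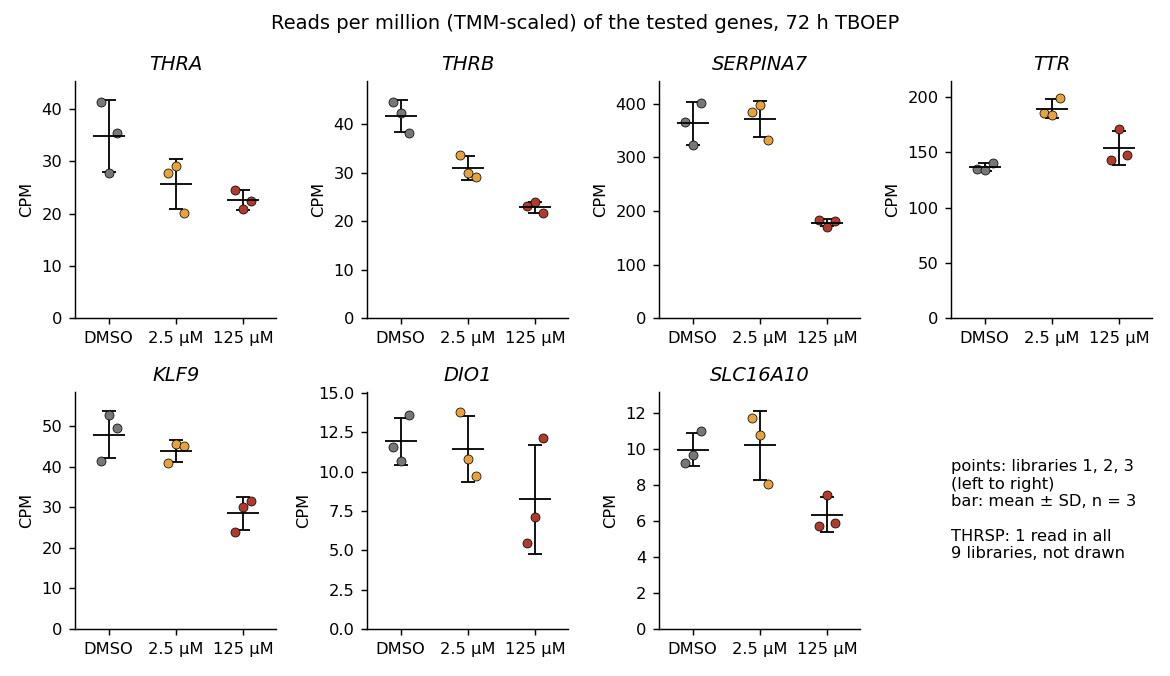
CPM of the 7 tested genes in DMSO controls, at 2.5 µM and at 125 µM TBOEP, with points for libraries 1 to 3 and bars for mean ± SD (n = 3). SERPINA7 averages 371.9 CPM at 2.5 µM and lies at 171 to 184 CPM at 125 µM, THRB steps down at each concentration, and TTR is highest at 2.5 µM.

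The receptors both had less RNA at 125 µM. THRB (chromosome 3, 24158651 to 24536773, minus strand, build hg19) had 23.1, 24.0 and 21.7 CPM at 125 µM, against 44.7, 42.3 and 38.2 CPM in controls. The groups did not overlap, as was true of 25.2% of all genes in this direction and 25.6% in the other. The log2 fold change was -0.86 ± 0.11 (adjusted p = 4.09e-05), a 1.82-fold fall. THRB is the receptor that carries most hormone signalling in hepatocytes. In these HepG2 controls, however, its 3.71 to 4.28 RPKM overlapped the 3.93 to 5.38 RPKM of THRA. Introns gave 10.5, 7.27 and 10.2% of THRB reads at 125 µM, against 16.4, 12.6 and 11.4% in controls, and 24.6, 9.94 and 11.1% at 2.5 µM, where the first library stood apart. Over the alternatives tried its log2 fold change ran from -0.91 to -0.81, exon reads alone included. It overlaps THRB-AS1 on the opposite strand, which had 52 reads in all 9 libraries.

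THRA (chromosome 17, 38214543 to 38250120, plus strand), the more widely expressed receptor, had 24.5, 20.8 and 22.4 CPM at 125 µM, against 41.4, 27.7 and 35.4 CPM in controls. All 125 µM libraries were below all controls, and the second control was the lowest of its group. The log2 fold change was -0.65 ± 0.15 (adjusted p = 0.00427). THRA overlaps NR1D1 at its end over 1081 bases and MED24 at its start over 2926 bases, both on the opposite strand, so its value is uncertain to the extent that reads were counted without strand. Neither neighbour passed the test at 125 µM, with log2 fold changes of -0.14 ± 0.16 for NR1D1 (adjusted p = 0.526) and -0.02 ± 0.09 for MED24 (adjusted p = 0.915). The ratio of THRA to THRB in RPKM was 1.12 to 1.44 at 125 µM and 0.917 to 1.35 in controls, and these ranges overlap.

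The carriers differed from each other. SERPINA7 (chromosome X, 105277197 to 105282729, minus strand), which binds most of the thyroxine in human plasma, had 183.7, 170.8 and 181.3 CPM at 125 µM, against 367, 322.5 and 401.7 CPM in controls. Every 125 µM library lay below every control. The log2 fold change was -1.03 ± 0.10 (adjusted p = 6.1e-06), the largest of the 8 genes in this comparison, and it ran from -1.10 to -0.95 over the alternatives. Introns held 13.2% of its reads at 125 µM and 13.0% in controls. TTR (chromosome 18, 29171689 to 29178974, plus strand), a carrier of thyroxine and of the retinol-binding protein, had 143.1, 171.6 and 147.9 CPM at 125 µM, against 135.0, 133.8 and 140.8 CPM in controls. Its groups did not overlap, but the log2 fold change of 0.18 ± 0.09 did not pass (adjusted p = 0.114, 95% interval -0.0056 to 0.37). It passed when libraries were scaled by their totals alone (adjusted p = 0.0496). Albumin (ALB), also a carrier, had 13696, 12068 and 17406 CPM at 125 µM, against 42736, 28515 and 36118 CPM in controls, a log2 fold change of -1.31 ± 0.17 (adjusted p = 4.88e-05). These carriers are among the secreted liver proteins, and 7 of the 10 hepatocyte markers fell at 125 µM, beside 19.9% of all tested genes, among them ALB, AFP and FGB, while APOA1 and HNF4A were among those that did not pass.

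The activating enzyme and the transporter were read less deeply. DIO1 (chromosome 1, 54356912 to 54376759, plus strand) had 5.46, 7.14 and 12.1 CPM at 125 µM, against 11.5, 10.7 and 13.6 CPM in controls. The third 125 µM library, the shallowest of its group with 33 DIO1 reads, lay inside the control range. The log2 fold change was -0.67 ± 0.23 (adjusted p = 0.0321). The call was lost without the first or the second 125 µM library (adjusted p = 0.186 and adjusted p = 0.13) and without the first or the third control (adjusted p = 0.0609 and adjusted p = 0.1004), and with library totals alone (adjusted p = 0.0526). SLC16A10 (chromosome 6, 111408781 to 111552397, plus strand) had 5.70, 7.47 and 5.87 CPM at 125 µM, against 9.23, 9.70 and 11.0 CPM in controls. The groups did not overlap, and the log2 fold change was -0.59 ± 0.19 (adjusted p = 0.021). This call was lost without the first 125 µM library (adjusted p = 0.1005), without the third control (adjusted p = 0.0674) and with DESeq2 (adjusted p = 0.0522).

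Of the targets, KLF9 (chromosome 9, 72999503 to 73029540, minus strand), a zinc finger transcription factor induced by thyroid hormone and by glucocorticoids, had 23.9, 30.1 and 31.6 CPM at 125 µM, against 41.5, 52.8 and 49.5 CPM in controls. All 125 µM libraries lay below the controls. The log2 fold change was -0.76 ± 0.13 (adjusted p = 0.000321). THRSP (chromosome 11, 77774907 to 77779397, plus strand), a regulator of fat synthesis and a classical hormone target in rat liver, had 1 read in the second 2.5 µM library and none in the other 8, so that no change was detectable at this depth. Its relative MID1IP1 had 17.1, 16.2 and 20.2 CPM at 125 µM, against 23.1, 17.2 and 27.4 CPM in controls, and did not pass (log2 fold change -0.37 ± 0.16, adjusted p = 0.077).

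At 2.5 µM, 2 of the 7 tested genes passed against solvent, TTR higher and THRB lower. Of all tested genes 11% passed, 6.02% higher and 5.03% lower. TTR had 185.6, 184.3 and 199.2 CPM at 2.5 µM, against 135.0, 133.8 and 140.8 CPM in controls. The groups did not overlap, as for 14.4% of all genes in this direction, and the log2 fold change was 0.47 ± 0.09 (adjusted p = 0.00825). Its call held in each of the 19 alternatives, with log2 fold changes from 0.44 to 0.50. THRB had 33.8, 29.9 and 29.1 CPM at 2.5 µM, against 44.7, 42.3 and 38.2 CPM in controls. All 2.5 µM libraries lay below the controls, as for 13.8% of all genes, and the log2 fold change was -0.43 ± 0.10 (adjusted p = 0.0202). That call was lost without the first control (adjusted p = 0.121), without the second or the third 2.5 µM library (adjusted p = 0.0608 and adjusted p = 0.0691) and with only the 2 groups in the fit (adjusted p = 0.0526).

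The other 5 did not pass at 2.5 µM. THRA had 27.8, 29.1 and 20.2 CPM, with a log2 fold change against controls of -0.40 ± 0.15 (adjusted p = 0.0997, 95% interval -0.72 to -0.08). It passed without the second control (adjusted p = 0.0204) and with no filter on low counts (adjusted p = 0.0317). The adjusted p with no filter is not comparable with the others, as described below. SERPINA7 had 384.9, 397.5 and 333.3 CPM at 2.5 µM, within or near the control range, and a log2 fold change of 0.04 ± 0.10 (95% interval -0.17 to 0.24). KLF9 had 40.9, 45.6 and 45.2 CPM, with a log2 fold change of -0.12 ± 0.12 (95% interval -0.38 to 0.14). DIO1 had 13.8, 10.8 and 9.70 CPM and SLC16A10 had 11.8, 10.8 and 8.08 CPM at 2.5 µM. Their log2 fold changes against controls, -0.01 ± 0.22 and 0.12 ± 0.18, have 95% intervals of -0.47 to 0.46 and -0.26 to 0.49.

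**Figure D3:**
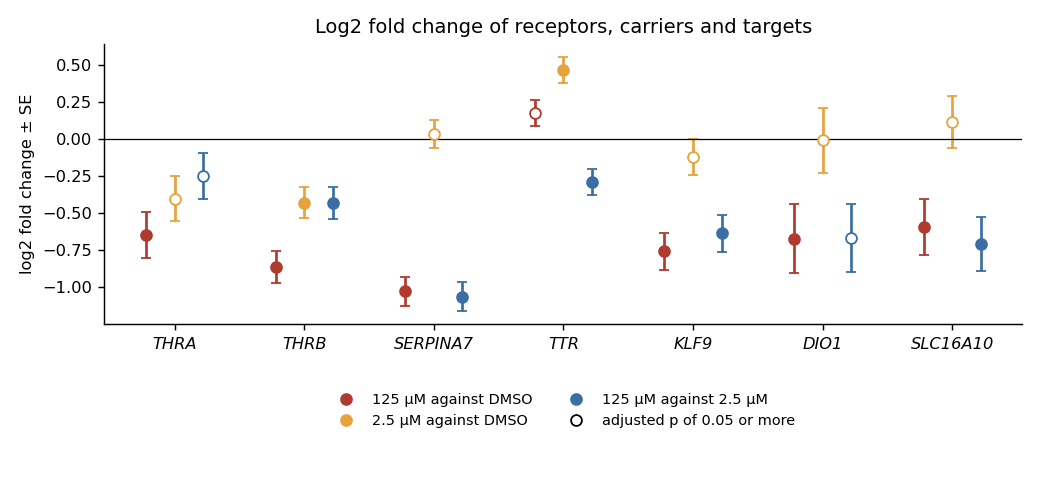
Log2 fold change ± SE of the 7 tested genes in 3 comparisons, with open circles where the adjusted p was 0.05 or more. At 125 µM 6 genes lie below 0 with filled circles, and at 2.5 µM only TTR (0.47) and THRB (-0.43) are filled.

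The 2 concentrations were also compared directly, since the comparisons with solvent share their 3 control libraries. Of the 7 tested genes 5 were lower at 125 µM than at 2.5 µM and none was higher, where 14.9% of all tested genes passed, 7.48% higher and 7.44% lower. The groups of these 5 did not overlap, as for 15.9% of all genes in this direction. SERPINA7 differed most, at 178.6 ± 6.88 CPM at 125 µM and 371.9 ± 34.0 CPM at 2.5 µM (mean ± SD, n = 3), a log2 fold change of -1.06 ± 0.10 (adjusted p = 2.14e-05). KLF9 had 28.5 ± 4.07 CPM at 125 µM and 43.9 ± 2.61 CPM at 2.5 µM, a log2 fold change of -0.64 ± 0.13 (adjusted p = 0.00382). These 2 calls held in all 19 alternatives.

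The remaining calls between the concentrations were each lost in some of the fits with 1 library left out. They held in 16 (SLC16A10), 15 (THRB) and 12 (TTR) of the 19 alternatives. SLC16A10 was lower at 125 µM, 6.35 ± 0.974 against 10.2 ± 1.91 CPM at 2.5 µM (log2 fold change -0.71 ± 0.18, adjusted p = 0.0183). THRB was lower at 125 µM, 22.9 ± 1.17 against 30.9 ± 2.49 CPM at 2.5 µM (log2 fold change -0.43 ± 0.11, adjusted p = 0.0164), so that its level at 2.5 µM lay between the other groups. TTR was lower at 125 µM, 154.2 ± 15.3 against 189.7 ± 8.21 CPM at 2.5 µM (log2 fold change -0.29 ± 0.09, adjusted p = 0.0364). Without the first 125 µM library the adjusted p of these genes became 0.0958 for SLC16A10, 0.0624 for THRB and 0.157 for TTR in edgeR, and 2 of the 5 calls were left. The first 2.5 µM library had the same effect, with 2 calls left, and without the second 3 were left. THRB also missed without the second or the third 125 µM library (adjusted p = 0.0531 and adjusted p = 0.0503). TTR also missed without the third 125 µM library, the third 2.5 µM library or the third control (adjusted p = 0.118, adjusted p = 0.0861 and adjusted p = 0.0515) and with library totals alone (adjusted p = 0.0604). DIO1 and THRA did not pass, with log2 fold changes of -0.67 ± 0.23 (95% interval -1.15 to -0.18, adjusted p = 0.0635) and -0.25 ± 0.16 (95% interval -0.58 to 0.09, adjusted p = 0.318). DIO1 passed without the third 125 µM library (adjusted p = 0.018), without the first control (adjusted p = 0.0491), on exon reads (adjusted p = 0.0298) and with no filter (adjusted p = 0.00967). Here too the adjusted p with no filter is not comparable with the others.

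Other genes of hormone handling and action were read from 4 lists, also chosen with earlier results known. The lists had 61 entries, of which 42 were tested. At 125 µM 11 rose, 12 fell and 19 did not pass, a share called of 54.8% beside 40.2% of all tested genes, with a median log2 fold change of -0.12. At 2.5 µM 3 rose, 5 fell and 34 did not pass, 19% beside 11% of all genes. All 8 calls at 2.5 µM were lost without the first control, where 0 of 42 passed edgeR's adjusted test and 12 had an unadjusted p under 0.05, while DESeq2 on all libraries called 7. Without the third 2.5 µM library 2 were called, and without the third control 3. Between the concentrations 5 were higher and 5 lower at 125 µM, 23.8% beside 14.9%.

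Only 3 of 11 transporters were tested. SLC3A2 and SLC7A5, the heavy and light chains of an amino acid exchanger that also carries thyroid hormone, rose at 125 µM. SLC3A2 had 179.6, 163.3 and 187.2 CPM at 125 µM, against 98.7, 101.5 and 98.5 CPM in controls (log2 fold change 0.82 ± 0.11, adjusted p = 8.22e-05). SLC7A5 had 491.1, 469.1 and 448.9 CPM at 125 µM, against 300.8, 343.3 and 326.8 CPM in controls (log2 fold change 0.54 ± 0.10, adjusted p = 0.000905). Both also rose at 2.5 µM, by log2 fold changes of 0.52 ± 0.11 (adjusted p = 0.0134) and 0.35 ± 0.10 (adjusted p = 0.0403). Without the first control both calls at 2.5 µM were lost (adjusted p = 0.0614 for SLC3A2 and adjusted p = 0.186 for SLC7A5), and SLC7A5 missed in 9 of the 19 alternatives, the replicate block among them (adjusted p = 0.053). SLCO4A1, an organic anion transporter, did not pass at either concentration. SLCO1B1 and SLCO1C1, of the same family, had 1 and 5 reads in all 9 libraries.

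Of 12 genes of deiodination, binding and conjugation, 5 were tested, and at 125 µM 1 rose and 2 fell. The share called was 60%, beside 40.2% of all tested genes. SULT1E1, an oestrogen sulfotransferase that also acts on iodothyronines, had 0.607, 0.830 and 0.734 CPM at 125 µM, against 3.56, 4.35 and 5.39 CPM in controls (log2 fold change -2.51 ± 0.37, adjusted p = 0.000125). SULT1E1 had only 177 reads in all 9 libraries, and on exon reads alone it was not tested. In the third 125 µM library its level was below the 1.12 CPM that correspond to 3 reads. SULT1A1, a phenol sulfotransferase, rose to 80.4 ± 2.05 CPM at 125 µM, against 52.2 ± 7.37 CPM in controls (n = 3 each, log2 fold change 0.63 ± 0.12, adjusted p = 0.000683), and also at 2.5 µM (0.55 ± 0.12, adjusted p = 0.0113). It has close relatives that can share reads, so its value is uncertain to that extent. On unique reads alone edgeR's test gave SULT1A1 log2 fold changes of 0.63 at 125 µM (adjusted p = 0.000685) and 0.55 at 2.5 µM (adjusted p = 0.0113). The other that fell at 125 µM was ALB, given above with the carriers. SECISBP2, needed to insert selenocysteine into DIO1, fell at 2.5 µM (log2 fold change -0.29 ± 0.09, adjusted p = 0.0456), a call lost in 14 of the 19 alternatives, and did not pass at 125 µM (-0.15 ± 0.09). CRYM, a cytosolic binder of triiodothyronine that overlaps ANKS4B, did not pass. DIO2 and DIO3, the other deiodinases, had no reads, and UGT1A1, UGT1A3 and UGT1A9, which share exons with each other, were listed at 0.

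Of 15 receptor partners and coregulators, 14 were tested and 6 passed at 125 µM, 1 higher and 5 lower, a share of 42.9% that is close to the 40.2% of all tested genes. HDAC3, the deacetylase of the corepressor complex, had 51.9, 46.6 and 49.2 CPM at 125 µM, against 99.4, 57.0 and 79.0 CPM in controls (log2 fold change -0.69 ± 0.15, adjusted p = 0.00274). EP300, a coactivating acetyltransferase, had 92.8, 77.4 and 72.7 CPM at 125 µM, against 148.2, 113.0 and 128.0 CPM in controls (log2 fold change -0.67 ± 0.12, adjusted p = 0.000441). Its relative CREBBP, the corepressor subunit TBL1X and the receptor partner RXRA fell by 0.37, 0.44 and 0.23 on the log2 scale. The RXRA call was lost in 12 of the 19 alternatives, and those of CREBBP and TBL1X without the second 125 µM library or the first control (adjusted p of 0.0547 to 0.0984). At 2.5 µM MED1 and EP300, both coactivators, fell (-0.44 ± 0.11 and -0.44 ± 0.12, adjusted p = 0.019 and adjusted p = 0.0278). None passed between the concentrations by edgeR's test.

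Of 23 hepatic target genes 20 were tested, and 60% of them were called at 125 µM, beside 40.2% of all tested genes. Of the 20, 7 rose, 5 fell and 8 did not pass. Among those that rose were PPARGC1A, CPT1A, ANGPTL4, UCP2 and PCK1. UCP2 had only 144 reads in all 9 libraries, with 1.05, 1.39 and 0.26 CPM in controls. PPARGC1A, a coactivator of mitochondrial and gluconeogenic genes, had 84.9, 83.7 and 83.7 CPM at 125 µM, against 50.5, 49.9 and 53.1 CPM in controls (log2 fold change 0.72 ± 0.08, adjusted p = 2.58e-05). CPT1A, which commits fatty acids to oxidation, had 97.3, 123.2 and 95.1 CPM at 125 µM, against 49.4, 59.4 and 52.3 CPM in controls (log2 fold change 0.99 ± 0.14, adjusted p = 0.000115). ANGPTL4, a secreted inhibitor of lipoprotein lipase, overlaps RAB11B-AS1 and is uncertain to the extent that reads are shared.

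Among the 5 targets that fell at 125 µM were CYP7A1, FURIN, BCL3 and HR. FURIN, a proprotein convertase, had 60.6, 36.6 and 73.8 CPM at 125 µM, against 238.3, 81.1 and 160.8 CPM in controls (log2 fold change -1.56 ± 0.32, adjusted p = 0.00158). The second control lay close to the highest 125 µM library. BCL3, a coregulator of NF-kB, fell by 1.35 on the log2 scale (adjusted p = 0.000336). CYP7A1, the first enzyme of bile acid synthesis, had 0.286 ± 0.0701 CPM at 125 µM and 1.41 ± 0.331 CPM in controls (n = 3 each). The HR call was lost in 5 of the 19 alternatives and that of PCK1, which rose, in 3, and CYP7A1 missed without the second 125 µM library (adjusted p = 0.0566). CYP7A1 had only 61 reads in all 9 libraries. It was not tested with the stricter filter or with only the 2 groups compared. The lipogenic targets FASN, ACACA and SREBF1 did not pass, and ME1 was listed at 0 in all 9 libraries. At 2.5 µM 2 of the 20 passed, BCL3 (-0.88 ± 0.22, adjusted p = 0.0209) and FURIN (-1.23 ± 0.31, adjusted p = 0.0245), both lower, a share of 10% that is close to the 11% of all tested genes. The FURIN libraries overlapped, with 68.1, 87.5 and 43.6 CPM at 2.5 µM, against 238.3, 81.1 and 160.8 CPM in controls. Called targets thus lay in both directions at 125 µM, and the median over the 20 was -0.07.

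**Figure D4:**
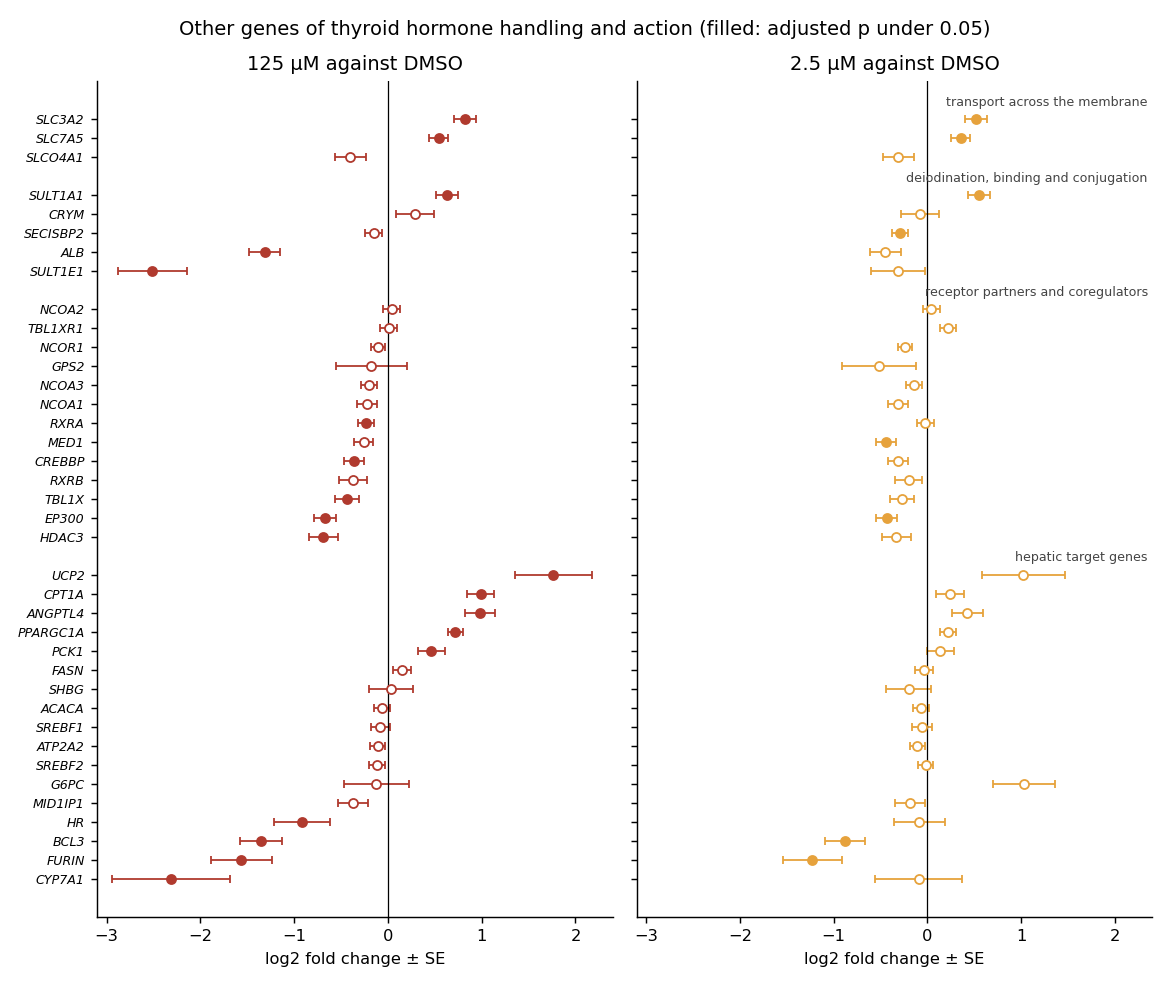
Log2 fold change ± SE of 38 of the 42 tested genes of 4 lists (the 4 not drawn were 3 that rose and 1 that fell at 125 µM and none called at 2.5 µM), at 125 µM (left) and 2.5 µM (right) against DMSO, with filled circles for an adjusted p under 0.05. Of the filled circles at 125 µM 8 lie above 0 and 11 below, where all 42 genes give 11 and 12, and at 2.5 µM 3 lie above and 5 below.

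Across the 9 libraries the members followed different genes. Likeness was measured as Pearson's r of log2 CPM among 12805 genes with at least 1 CPM on average, and is a description only, since all points share the 3 groups and their depths. SERPINA7 was most like PGM1 (r = 0.99), the plasma glycoprotein gene APOH (r = 0.99) and TSPAN8 (r = 0.99). THRB was most like DCAF5, SNRPA1 and CCNL1 (r of 0.99, 0.99 and 0.98), and THRA most like C12orf65, AC139100.2 and RHOJ (r of 0.99, 0.99 and 0.99). TTR was most like AHSG, which encodes another abundant plasma protein, then RP5-1120P11.3 and PLOD1 (r of 0.96, 0.95 and 0.95). KLF9 was most like LIN7A, AF127936.7 and LEMD3 (r of 0.97, 0.96 and 0.96). DIO1 was most like PCSK1N, RP11-613D13.5 and SMAD4 (r of 0.93, 0.93 and 0.91), and SLC16A10 most like NONOP2, MPP7 and SHFM1 (r of 0.97, 0.95 and 0.95). Among the members, SERPINA7 and SLC16A10 were closest (r = 0.90), and TTR had r between -0.52 and 0.20 with the other 6.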

How the data were processed

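Libraries of polyadenylated RNA that keep strand were made from the 9 HepG2 cultures and read in pairs, per the labels' protocols. The authors used CLC Genomics Workbench to align reads to hg19 and annotate them, per the series' design text. Not given in the sources used here are the software version and the use of strand in counting. The deposited counts (total, unique, exon, junction and intron reads of each gene) are whole and unnormalised, per the file headers. The deposited RPKM divide exon reads by exon length and library depth, per the file headers. Gene positions have 1 added to the start given by the files.

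Total gene reads were filtered (filterByExpr, 12901 genes) and TMM-scaled, then tested with edgeR 4.0.16 (R 4.3.3) by quasi-likelihood in a single fit of the 3 groups, with no covariate. Contrasts are two-sided, adjusted p-values (Benjamini-Hochberg) are over all 12901 genes with a threshold of 0.05, and SE and 95% intervals come from that fit. These steps were tested on simulated counts. Alternatives were DESeq2 1.42.0 (size factors, Wald test), upper-quartile scaling, library totals alone (added after seeing the data), no filter, a stricter filter (10 reads and 1 CPM in 3 libraries), exon reads, unique reads, only the groups compared, the replicate number as a block, and each library left out.

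The members and gene lists were chosen with earlier results of these data known. Besides the members, genes past the threshold could be named, with values for up to 4 of each list and comparison, those of smallest adjusted p. List genes named that did not pass, single marker genes and the neighbours of THRA were chosen after their values were seen. PECAM1 was not analysed here. Some list genes that meet the rule are counted but not reported here by name. The search for TATAAA was added after seeing the data.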

Additional observations from a re-analysis of the deposited data

How the results depend on the processing

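At 125 µM against solvent the number of the 8 genes called stayed at 5 or 6 under every alternative that kept all libraries. It was 4 to 6 with 1 library left out, and 4 without the first 125 µM library or the third control. At 2.5 µM, fitting only the groups compared gave 1 called member and 731 called genes, 63.2% of them higher beside 54.5% in the fit of all groups, and no filter gave 13 called pathway genes. In edgeR's test with no filter FURIN had adjusted p = 6.43e-29 at 2.5 µM, beside 0.0245 in the main fit, though its groups overlapped. SECISBP2 there had adjusted p = 0.0827, beside 0.0456. Calls and adjusted p-values with no filter are thus not comparable with those of the other settings. Leaving out 1 library at a time gave 213 to 2050 called genes, 1 to 3 members and 0 to 13 pathway genes at 2.5 µM. The lowest counts came without the first control (213 genes, 1 member, 0 pathway genes), with 468 genes and 2 pathway genes without the third 2.5 µM library, 707 genes and 3 pathway genes without the third control, and 5 pathway genes without the first 2.5 µM library. A single member was called without the second or the third 2.5 µM library, and 13 pathway genes without the second control. Between the concentrations, leaving out 1 library gave 799 to 2230 called genes and 2 to 6 members. These were 1043, 799 and 1252 genes without the first, the second and the third 125 µM library and 1015 without the second 2.5 µM library. The causes were not tested.

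Direction changed only for values near 0 at 2.5 µM against solvent. For DIO1 the log2 fold change was 0.0200 with upper-quartile scaling, 0.0183 on exon reads, 0.0301 with the replicate block, 0.0248 with library totals alone, 0.0016 with only the 2 groups, and -0.179 to 0.0808 with 1 library left out. For SERPINA7 it was -0.0376 to 0.116 with 1 library left out, and for SLC16A10 -0.0108 on exon reads. Deviations of same-numbered libraries of different groups had r of -0.24 to 0.18 over genes, and those of the other pairs -0.27 to 0.27. Of the 9 libraries 5 correlated best with their own number. The replicate block changed no member's call and gave 5066, 1274 and 1771 called genes beside 5180, 1425 and 1925. The share of higher calls at 2.5 µM was 81.7% without the first control and 69% without the third 2.5 µM library, 59.5% with library totals alone and 61.2% with upper-quartile scaling, beside 54.5% with all libraries and TMM, and no scaling moved the median of all genes by over 0.06. Depth limits SLC16A10, DIO1 and THRSP, with 592, 665 and 1 reads in all.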

Other observations

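The ratio of SERPINA7 to TTR in deposited RPKM was 1.19, 0.902 and 1.12 at 125 µM, against 2.50, 2.20 and 2.62 in controls. At 2.5 µM it was 1.89, 1.99 and 1.53. The 3 groups did not overlap. The ratio needs no scaling between libraries, it was chosen after the values were seen, and no test was run on it. The genes' own log2 fold changes were 0.47 for TTR and 0.04 for SERPINA7 at 2.5 µM, and 0.18 for TTR and -1.03 for SERPINA7 at 125 µM.

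G6PC, a gluconeogenic target, had 14.8, 27.8 and 12.5 CPM at 125 µM and 58.8, 27.9 and 46.5 CPM at 2.5 µM. It was lower at 125 µM than at 2.5 µM in edgeR's test (log2 fold change -1.15 ± 0.32, adjusted p = 0.028), a call lost without the first or the third 125 µM library, without the first 2.5 µM library and with DESeq2 (adjusted p of 0.0747 to 0.161), and did not pass against controls at either concentration.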
